A study of Mus musculus with 40 samples.

Results

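Neurexins, neuroligins and leucine-rich repeat transmembrane (LRRTM) proteins are adhesion proteins that face each other across the synaptic cleft. Members were the 9 rows of the deposited gene table, out of 24060, whose symbols are *Nrxn2*, *Nrxn3*, *Nlgn1*, *Nlgn2*, *Nlgn3*, *Lrrtm1*, *Lrrtm2*, *Lrrtm3* and *Lrrtm4*, and each of the 9 passed the filter on low counts in every comparison. They were chosen by name. RNA was measured by sequencing in 40 libraries of mouse striatum, in 10 groups of 4. The RiboTag method expresses a tagged ribosomal protein in a chosen cell type from an adeno-associated virus, and the tagged ribosomes are then immunoprecipitated (IP) together with their RNA, whereas the input is RNA of the same lysate before the IP.

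The Control groups (Control IP and Control input) are of C57/BL6NTac mice. Their labels do not name the virus. They are taken here as the astrocyte RiboTag, driven by the GfaABC1D promoter, because the methods describe an astrocyte and a neuron RiboTag and the labels name the neuron one elsewhere. The Syn groups (Syn IP and Syn input) are the neuron RiboTag, driven by the human SYN1 promoter. Per the methods, the mice of both RiboTags were C57/BL6NTac. Injections in both were at 6 weeks of age. The SAPAP3 cohort has IP and input of wild-type (WT) C57/BL6J mice and of SAPAP3 knockout (KO) mice. The KO mice lack functional *Dlgap3* throughout the body and carry a targeted allele. In this cohort their labelled strain is C57/BL6J-Dlgap3 KO, and the methods describe a line maintained as heterozygous. Per the methods, mice of this line were injected at 4.5 months. The labels name no cell type for this IP, so it is described without one. The bulk groups hold RNA of whole striatal tissue of WT and KO mice, with C57/BL6NTac as the labelled strain, and the labels give the same animal number to a WT and a KO bulk library. The counts per library summed to between 23438112 and 84109800, and no pair of replicates differed by as little as sampling noise.

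Presynaptic neurexins bind postsynaptic neuroligins and LRRTM proteins, and these pairs help to organise transmitter release sites and receptor clusters. Neuroligin 1 is found mainly at excitatory synapses, neuroligin 2 at inhibitory synapses and neuroligin 3 at both, whereas the LRRTM proteins act at excitatory synapses. Neurons are the cells best known for all of these proteins, but astrocytes also express neuroligins, which have been linked to their shape.

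The genes differ widely in layout. In GRCm38.p6, the assembly also called mm10, *Nrxn3* spans chr12:88722701-90334935 on the plus strand (1612235 bp) and *Nlgn1* spans chr3:25421808-26332866 on the minus strand (911059 bp). *Lrrtm4* spans chr6:80018858-80810162 (plus) and *Nrxn2* spans chr19:6418756-6533217 (plus). *Nlgn2* lies within 14662 bp at chr11:69823123-69837784 (minus). *Nlgn3* is X-linked, at chrX:101299179-101321350 (plus). *Lrrtm1* (chr6:77229210-77259915, plus), *Lrrtm2* (minus strand) and *Lrrtm3* (chr10:63928497-64090255, minus) each lie inside an alpha-catenin gene on the opposite strand, *Ctnna2*, *Ctnna1* and *Ctnna3* respectively, and share 0 bp of exon with it.

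The promoter windows of the 3 LRRTM genes that were called lower in Control IP than in input are shown. *Nlgn1* was also called lower in that comparison, but its windows are not shown. Each window is 300 bases from RefSeq on GRCm38.p6, from 250 before an annotated transcript start to 50 from it, 5′ to 3′ on the gene's strand. The *Lrrtm1* window lies inside the gene span given above, not before it. Capitals mark matches to CANNTG, the letters of an E-box, which read the same on either strand.
*Lrrtm1*, chr6:77242227-77242526, plus strand: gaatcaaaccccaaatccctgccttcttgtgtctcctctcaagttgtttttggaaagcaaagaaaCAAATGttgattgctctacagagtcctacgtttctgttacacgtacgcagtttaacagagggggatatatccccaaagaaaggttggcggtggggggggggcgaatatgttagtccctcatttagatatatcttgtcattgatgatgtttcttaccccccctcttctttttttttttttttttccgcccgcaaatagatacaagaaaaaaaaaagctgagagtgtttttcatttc
*Lrrtm3*, chr10:64090206-64090505, minus strand: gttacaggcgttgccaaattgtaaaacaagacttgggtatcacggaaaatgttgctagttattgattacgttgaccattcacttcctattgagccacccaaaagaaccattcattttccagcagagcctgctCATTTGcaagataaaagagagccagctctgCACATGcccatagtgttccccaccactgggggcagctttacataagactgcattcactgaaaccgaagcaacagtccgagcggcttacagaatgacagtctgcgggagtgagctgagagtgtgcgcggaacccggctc
*Lrrtm4*, chr6:80018627-80018926, plus strand: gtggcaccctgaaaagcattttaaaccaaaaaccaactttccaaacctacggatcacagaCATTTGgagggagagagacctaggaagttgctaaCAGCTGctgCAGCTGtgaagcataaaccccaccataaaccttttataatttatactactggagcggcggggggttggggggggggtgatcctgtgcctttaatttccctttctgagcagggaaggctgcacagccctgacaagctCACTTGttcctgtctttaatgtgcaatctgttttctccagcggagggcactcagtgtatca
These windows hold 1, 2 and 4 matches to CANNTG, a motif that 72.3% of the 32817 distinct promoter windows of this length also hold. Their GC content was 40.7% for *Lrrtm1*, 48.7% for *Lrrtm3* and 48.7% for *Lrrtm4*, against a median of 52.7% over all windows. The *Lrrtm4* window also holds 2 matches to TATAAA on either strand, found in 13.6% of windows, and the *Lrrtm1* window holds 1 match to GGGCGG, found in 35.6%. Both strands were searched for each motif and overlapping matches were counted. The letters CCAAT, in 37.4% of windows, had 0 matches in these 3. Windows were also found for *Nrxn3*, *Nlgn1* and *Nlgn2*, and a further window for *Lrrtm4*. Those of *Nlgn1*, also called lower in Control IP, held 0 and 0 matches to CANNTG. The windows of *Nrxn3* held 0, 1 and 5 matches, that of *Nlgn2* held 1 and the further window of *Lrrtm4* held 2. No window was matched for *Nrxn2* and *Nlgn3*. *Lrrtm2* was left out of this search, so whether it has a window was not tested.

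Levels are given as normalised CPM, the reads on a gene for every 1000000 reads counted in its library, with library sizes that were scaled with the TMM method over the 40 libraries. These levels compare 1 gene between libraries. The highest group mean of *Nrxn3* was 487 ± 14.8 CPM in Syn IP (SD, n = 4), and that of *Nrxn2* was 401 ± 27.1 in Control IP (SD, n = 4). The group means of *Lrrtm4* ranged from 25.2 ± 3.79 in the SAPAP3 KO IP to 51.0 ± 3.21 in Control input. Over the 10 groups, the highest group mean was 2.48 times the lowest for *Lrrtm3*, 2.20 times for *Lrrtm1* and 2.03 times for *Lrrtm4*, but 1.41 times for *Nrxn3* and 1.42 times for *Nlgn2*. The lowest group mean of *Nlgn1*, *Lrrtm1*, *Lrrtm3* and *Lrrtm4* was in the SAPAP3 KO IP, and that of *Lrrtm2* was in Control IP. When the 10 groups were ordered by mean, neighbours in that order overlapped in 76 of 81 pairs over the 9 genes. The 5 steps without overlap were between Syn IP, which was highest, and Control input for *Lrrtm1*, between Syn input and the SAPAP3 WT IP for *Nlgn1* and *Lrrtm2*, between Syn input and Control IP for *Lrrtm3*, and between the SAPAP3 WT input and Control IP for *Lrrtm4*. The share of such steps over all genes is not given, so the count is not read as particular to the 9. The cohorts were prepared separately, so the order across cohorts is a description.

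**Figure D1:**
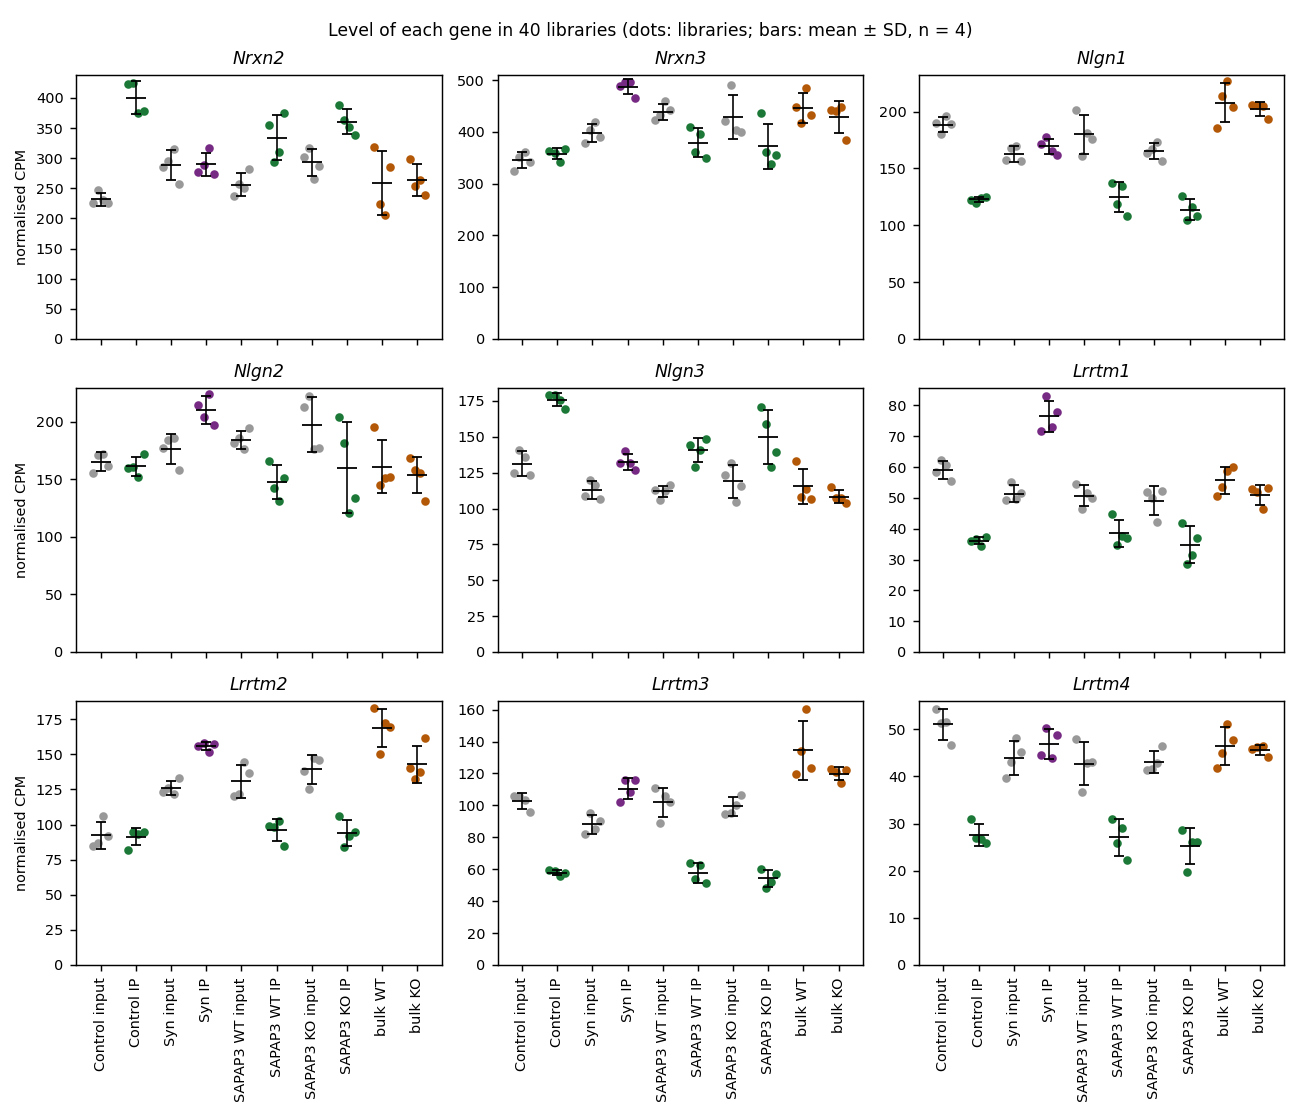
Normalised CPM (y axis, from 0) of the 9 genes in the 10 groups (x axis), with each library as a dot and the group mean ± SD (n = 4) as a bar. *Nlgn1*, *Lrrtm1*, *Lrrtm3* and *Lrrtm4* sit lower in Control IP and in both SAPAP3 cohort IPs than in the matching inputs, whereas *Lrrtm1* is highest in Syn IP, between 71.8 and 83.1.

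Compared per length, as FPKM (normalised CPM per kb of the exons of curated RefSeq transcripts), the genes kept different orders in the IPs. In Control IP, *Nrxn2* was highest at 60.1 ± 4.07 FPKM (SD, n = 4), followed by *Nlgn3* at 45.3 ± 1.16, *Nrxn3* at 37.9 ± 1.16 and *Nlgn2* at 28.1 ± 1.44. The LRRTM genes and *Nlgn1* came after these, with *Lrrtm2* at 16.1 ± 1.07, *Lrrtm3* at 15.0 ± 0.391, *Lrrtm1* at 13.1 ± 0.442, *Nlgn1* at 7.46 ± 0.125 and *Lrrtm4* at 5.67 ± 0.476. *Lrrtm2* and *Lrrtm3* were the neighbours that overlapped. In Syn IP, *Nrxn3* was first at 51.6 ± 1.57 FPKM and *Nrxn2* next at 43.4 ± 2.94, and *Lrrtm3* (28.7 ± 1.67), *Lrrtm1* (27.6 ± 1.85) and *Lrrtm2* (27.5 ± 0.499) overlapped each other. *Nlgn1* (10.3 ± 0.420) and *Lrrtm4* (9.64 ± 0.650) were lowest in Syn IP too. The length matters most for *Nrxn3* and *Lrrtm1*, whose level in Control IP would be 3.19 and 1.99 FPKM with the exons of all RefSeq models, predicted ones included. The annotation the authors counted on is not given in the sources used here.

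To find which of these genes were enriched or depleted in the astrocyte RiboTag, Control IP was compared with its input. *Nrxn2* and *Nlgn3* were higher in the IP, by 1.65-fold and 1.28-fold. *Nlgn1*, *Lrrtm1*, *Lrrtm3* and *Lrrtm4* were lower, at 62.0%, 58.2%, 53.7% and 51.6% of the input. *Nrxn3*, *Nlgn2* and *Lrrtm2* did not pass the test. Calls rest on edgeR's quasi-likelihood test at 0.05, with Benjamini-Hochberg adjustment over all genes tested. Of the 9 genes, 6 were called, against 80.4% of the 15476 genes tested (39.2% higher and 41.2% lower), so being called is not in itself particular to them. None passed the fold limit of the paper as well, a log2 fold change (log2(FC)) above 1 or below -1, which 13.4% of genes passed upwards and 13.5% downwards. This count of 0 depended on the settings: *Lrrtm1*, *Lrrtm3* (log2(FC) -1.12) and *Lrrtm4* (-1.18) passed with total-count scaling, *Lrrtm3* and *Lrrtm4* with upper-quartile scaling (-1.05 and -1.11), and *Lrrtm4* alone with the filter on FPKM or without Control IP replicate 1 (-1.01).

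*Nrxn2* encodes a presynaptic receptor of the neurexin family. It was at 225, 248, 230 and 225 CPM in the 4 inputs and at 423, 425, 375 and 379 CPM in the 4 IP libraries. The groups were well apart, with a log2(FC) of 0.72 ± 0.05 (SE; edgeR adjusted p = 1.51e-07) and a higher IP value in 4 of 4 pairs. *Nrxn3*, the other neurexin measured here, had overlapping values of 325 to 361 CPM in input and 343 to 368 CPM in IP, and a log2(FC) of -0.02 with a 95% interval of -0.10 to 0.07 (edgeR adjusted p = 0.729).

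Among the neuroligins, the 3 genes went different ways. *Nlgn3* was at 125, 141, 136 and 123 CPM in input and at 180, 179, 176 and 170 CPM in IP, so every IP library was above every input, with a log2(FC) of 0.35 ± 0.05 (SE; edgeR adjusted p = 2.24e-05). *Nlgn1* was at 190, 180, 196 and 189 CPM in input. Its IP values of 122, 120, 124 and 125 CPM were all lower and lay close together (log2(FC) = -0.69 ± 0.03, SE; edgeR adjusted p = 5.75e-09). *Nlgn2* overlapped, at 155 to 172 CPM in input and 152 to 172 CPM in IP, with a log2(FC) of -0.10 (95% interval -0.21 to -0.0015). Its edgeR adjusted p was 0.0581, and 0.0329 with the animal as a block.

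The LRRTM genes encode postsynaptic ligands of neurexins, and the 3 called members of this family were those with the lowest log2(FC) of the 9. *Lrrtm4* was at 54.4, 51.4, 51.6 and 46.7 CPM in input and at 31.0, 26.9, 26.6 and 25.9 CPM in IP (log2(FC) = -0.95 ± 0.07, SE; edgeR adjusted p = 1.09e-07). *Lrrtm3* was at 106, 106, 104 and 95.7 CPM in input and at 59.2, 58.8, 55.9 and 57.4 CPM in IP (log2(FC) = -0.90 ± 0.04, SE; edgeR adjusted p = 2.88e-09). Neither gene had overlapping groups, and in both each IP library was lower than its own input. *Lrrtm1* was at 58.3, 62.2, 60.6 and 55.5 CPM in input against 36.0, 36.7, 34.5 and 37.4 CPM in IP (log2(FC) = -0.78 ± 0.04, SE; edgeR adjusted p = 1.78e-08). *Lrrtm2* stood apart from these, with 84.9, 87.2, 106 and 91.6 CPM in input and 82.2, 94.9, 93.4 and 94.6 CPM in IP. Its groups overlapped and its log2(FC) was -0.09 with a 95% interval of -0.24 to 0.06 (edgeR adjusted p = 0.248).

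The groups did not overlap for 6 of the 9 genes, as for 75.0% of all genes tested. The scaling of the libraries bears on these values. Scaling to total counts moved the median log2(FC) of all genes from -0.02 to -0.25, with 34.2% of called genes higher in place of 48.8%, and called the 9 genes, with *Nrxn3*, *Nlgn2* and *Lrrtm2* lower. *Nrxn2* and *Nlgn3* stayed higher and *Nlgn1*, *Lrrtm1*, *Lrrtm3* and *Lrrtm4* stayed lower, each called, under every alternative run. All 10 astrocyte markers were higher in Control IP (median log2(FC) 2.97), with a summed level of 29950 to 33330 CPM against 2738 to 2967 CPM in input. The 10 neuron markers, among them *Snap25*, *Syt1* and *Rbfox3*, summed to 5146 to 5503 CPM in this IP against 6306 to 6681 CPM in input, with 6 lower, 2 higher, a median log2(FC) of -0.79 and none at 0. The part of neuronal RNA in the levels of the 9 genes in this IP was not tested. The 10 oligodendrocyte markers summed to 3619 to 6147 CPM in the IP and 5157 to 6082 CPM in input, and the 8 markers of their precursors to 283 to 317 CPM and 233 to 250 CPM. The 10 microglia markers (58.9 to 66.4 CPM in IP, 943 to 1160 CPM in input) and the 10 endothelial markers (13.6 to 16.0 CPM in IP, 114 to 143 CPM in input) were all lower in the IP.

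The same question was asked of neurons with Syn IP and Syn input. *Lrrtm1* had the largest change of the 9 genes, 1.47-fold higher in the IP, and *Lrrtm3*, *Lrrtm2*, *Nrxn3*, *Nlgn2* and *Nlgn3* were between 1.16-fold and 1.24-fold higher. *Nrxn2*, *Nlgn1* and *Lrrtm4* did not pass the test. Thus 6 of 9 were called, each higher, where 71.3% of 16198 genes were called and 35.5% were higher. None of the 9 passed the fold limit, which 0.42% of genes passed upwards and 15.8% downwards.

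*Lrrtm1* was at 49.2, 55.1, 49.7 and 51.5 CPM in Syn input and at 71.8, 83.1, 73.1 and 77.7 CPM in Syn IP, with no overlap (log2(FC) = 0.56 ± 0.06, SE; edgeR adjusted p = 9.66e-06). *Lrrtm3* was at 81.8, 95.5, 85.3 and 90.1 CPM in input and 102, 116, 108 and 116 CPM in IP (log2(FC) = 0.31 ± 0.06, SE; edgeR adjusted p = 0.000652). *Lrrtm2* was at 122 to 133 CPM in input and 152 to 158 CPM in IP (log2(FC) = 0.30 ± 0.04, SE; edgeR adjusted p = 5.40e-05). These 3 ligands were higher in the IP in 4 of 4 pairs, which in this cohort are by the number in the title. For *Lrrtm4*, input (39.6 to 48.1 CPM) and IP (44.0 to 50.4 CPM) overlapped, with a log2(FC) of 0.08 (95% interval -0.06 to 0.23).

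For the neurexins and neuroligins the shifts were smaller than for *Lrrtm1*. *Nrxn3* was at 379, 404, 420 and 390 CPM in input and 489, 497, 497 and 466 CPM in IP, without overlap (log2(FC) = 0.28 ± 0.04, SE; edgeR adjusted p = 0.000249). *Nrxn2* was at 257 to 316 CPM in input and 275 to 318 CPM in IP, with a log2(FC) of -0.01 (95% interval -0.16 to 0.15). *Nlgn2* (log2(FC) 0.24 ± 0.06, SE; edgeR adjusted p = 0.00526) and *Nlgn3* (0.22 ± 0.05, SE; edgeR adjusted p = 0.0024) were higher in each pair, from 158 to 186 CPM up to 197 to 225 CPM for *Nlgn2* and from 107 to 120 CPM up to 127 to 140 CPM for *Nlgn3*. *Nlgn1* overlapped, at 157 to 170 CPM in input and 162 to 178 CPM in IP (log2(FC) 0.04, 95% interval -0.06 to 0.14).

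Here too the groups were apart for 6 of 9 genes, against 66.3% of genes tested. These modest shifts depend on the scaling. With total counts, the median of all genes moved to -0.21, 27.4% of called genes were higher in place of 49.7%, and *Lrrtm1* was the sole member called higher (0.36), while *Nrxn2* (-0.21) and *Nlgn1* (-0.16) were called lower. With a filter of FPKM above 5, *Nlgn2* (0.08) and *Nlgn3* (0.06) were no longer called and *Nrxn2* (-0.17) and *Nlgn1* (-0.12) were called lower, and with upper-quartile scaling *Nlgn2* (0.15) was not called. The 10 neuron markers were higher in Syn IP (median log2(FC) 0.70, summed level 9352 to 9718 CPM against 5811 to 6152 CPM in input). Of the 10 astrocyte markers, 8 were lower, and their sum was 2938 to 3400 CPM in the IP against 4782 to 5278 CPM in input. The oligodendrocyte markers were lower for 10 of 10 genes (1398 to 2178 CPM against 4653 to 6233 CPM), as were the microglia and endothelial markers, and 7 of 8 precursor markers were lower. The part of each in the values of the 9 genes was not tested.

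**Figure D2:**
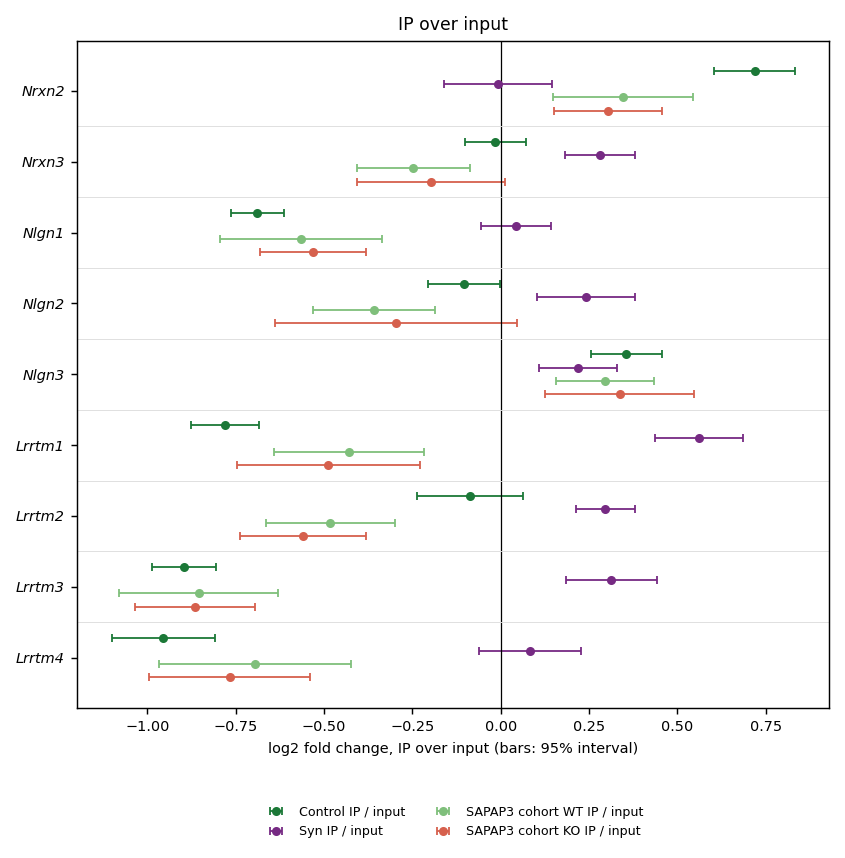
Log2 fold change of IP over input (x axis) for the 9 genes (y axis) in the Control, Syn, SAPAP3 WT and SAPAP3 KO comparisons, with 95% intervals from edgeR. Points left of 0 are lower in the IP. *Lrrtm3* lies at -0.90, -0.86 and -0.87 in the Control, WT and KO IPs and at 0.31 in Syn IP, whereas *Nlgn3* lies right of 0 in each of the 4.

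The difference between both RiboTags was tested as an interaction term, the log2(IP/input) of Syn minus that of Control. In this test 8 of 9 genes were called, against 70.1% of 16371 genes (35.8% higher and 34.3% lower). Of the 9, 7 were relatively more enriched in Syn IP, with *Lrrtm1*, *Lrrtm3* and *Lrrtm4* more than 1 log2 unit apart, a size that 8.27% of genes reached in this direction. *Nrxn2* was the sole member called in the direction of Control IP. The median difference was 0.38 over the 9 genes and 0.02 over all genes.

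The ratio of enrichments was 2.53 for *Lrrtm1* (log2 difference 1.34 ± 0.07, SE; edgeR adjusted p = 2.51e-11), 2.31 for *Lrrtm3* (1.21 ± 0.07, SE; edgeR adjusted p = 7.94e-11) and 2.05 for *Lrrtm4* (1.04 ± 0.10, SE; edgeR adjusted p = 6.41e-08). For *Nlgn1* it was 1.66 (0.73 ± 0.06, SE; edgeR adjusted p = 3.18e-09). Smaller differences in the same direction were found for *Lrrtm2* (0.38 ± 0.08, SE), *Nlgn2* (0.34 ± 0.08, SE) and *Nrxn3* (0.29 ± 0.06, SE), with edgeR adjusted p-values of 0.000485, 0.00119 and 0.0003. *Nrxn2* had a ratio of 0.60 (-0.73 ± 0.09, SE; edgeR adjusted p = 1.91e-06). *Nlgn3* was higher in both IPs, and its difference of -0.14 had a 95% interval of -0.28 to 0.01 (edgeR adjusted p = 0.0859, and 0.0152 with the pair as a block). The scaling moved these differences little: with total counts 8 genes were called and the median over all genes was 0.03. The cohorts also differ in sex. Reads of *Xist* numbered 0 to 1 per library in Control and 1843 to 14313 in Syn, and those of 4 Y-linked genes 4555 to 9467 in Control and 0 in Syn. Cell type, sex and cohort cannot be told apart in this difference, which includes the X-linked *Nlgn3*.

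**Figure D3:**
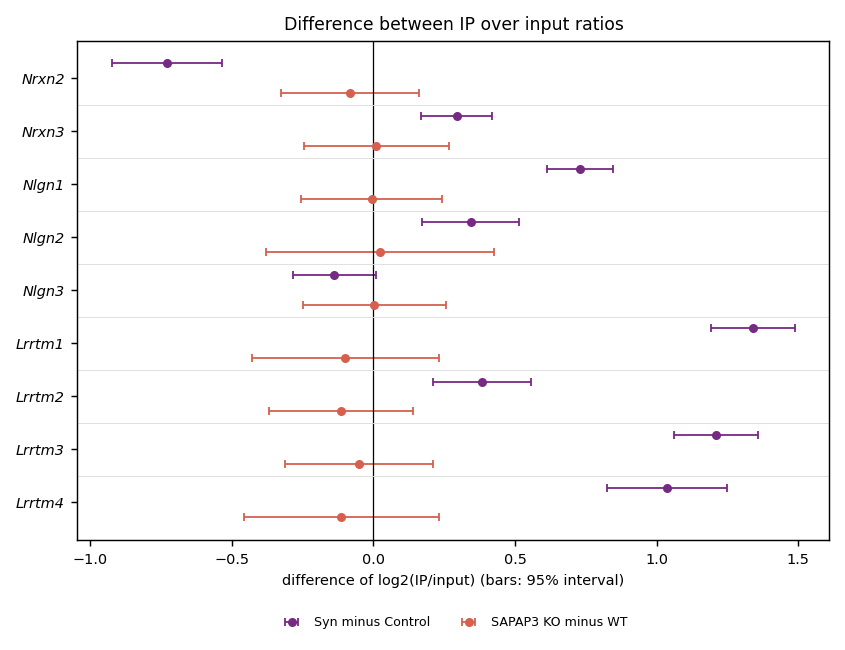
Differences between log2(IP/input) values (x axis) for the 9 genes (y axis), as Syn minus Control and as SAPAP3 KO minus WT, with 95% intervals from edgeR. *Lrrtm1*, *Lrrtm3* and *Lrrtm4* lie at 1.34, 1.21 and 1.04 for Syn minus Control and *Nrxn2* at -0.73, whereas each interval for KO minus WT includes 0.

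The SAPAP3 cohort gave another IP and input of WT and of KO mice. In WT mice, *Nrxn2* (1.27-fold) and *Nlgn3* (1.23-fold) were higher in the IP, and the other 7 genes were lower, down to 55.3% of the input for *Lrrtm3*. Thus the 9 genes were called, where 67.3% of 15587 genes were called (32.7% higher and 34.6% lower), and the groups did not overlap for 9 of 9, as for 61.4% of genes. None passed the fold limit, which 10.9% of genes passed upwards and 12.1% downwards. In KO mice 7 of 9 were called, against 71.9% of 15583 genes (36.1% higher and 35.9% lower), and the groups were apart for 6 of 9, against 66.9% of genes. The fold limit was passed by 0 of the 9, against 12.3% of genes upwards and 11.5% downwards. With total-count scaling *Lrrtm3* passed it in both genotypes (log2(FC) -1.03 in WT and -1.07 in KO). The called genes were divided as in WT, with *Nrxn2* and *Nlgn3* higher and *Nlgn1* and the 4 LRRTM genes lower.

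*Lrrtm3* was at 111, 88.9, 106 and 102 CPM in WT input and 63.6, 53.6, 62.7 and 51.2 CPM in WT IP (log2(FC) = -0.86 ± 0.10, SE; edgeR adjusted p = 5.66e-05). In KO mice it was at 94.5, 95.3, 101 and 107 CPM in input and 60.0, 48.2, 51.9 and 56.8 CPM in IP (log2(FC) = -0.87 ± 0.08, SE; edgeR adjusted p = 2.49e-06). The values of the genotypes overlapped in input and in IP. *Lrrtm2*, which did not pass the test in Control IP, was lower in this cohort, at 120 to 145 CPM in WT input and 84.6 to 102 CPM in WT IP (log2(FC) = -0.48 ± 0.08, SE; edgeR adjusted p = 0.000564). The KO values of *Lrrtm2* were 125 to 148 CPM in input and 84.1 to 106 CPM in IP (log2(FC) = -0.56 ± 0.08, SE; edgeR adjusted p = 9.32e-05).

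*Lrrtm4* had log2(FC) values of -0.70 ± 0.12 (SE) in WT and -0.77 ± 0.10 (SE) in KO, *Nlgn1* of -0.57 ± 0.10 and -0.53 ± 0.07, and *Lrrtm1* of -0.43 ± 0.09 and -0.49 ± 0.12, each called in both genotypes. *Nrxn2* rose from 237 to 281 CPM in WT input to 294 to 376 CPM in WT IP (log2(FC) = 0.35 ± 0.09, SE; edgeR adjusted p = 0.00629), and in KO mice its log2(FC) was 0.30 ± 0.07 (SE). *Nlgn3* had 0.29 ± 0.06 (SE) in WT and 0.34 ± 0.10 (SE) in KO, where its groups overlapped. With total counts *Nrxn2* and *Nlgn3* were no longer called in either genotype (0.10 to 0.17), as the median of all genes moved to -0.20 in WT and -0.21 in KO and the share of called genes that were higher fell to 34.3% and 34.5%, from 48.6% and 50.1%. *Nlgn3* in KO (0.21) was not called with upper-quartile scaling either, nor *Nrxn3* in WT (-0.18) without the filter on low counts.

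*Nrxn3* and *Nlgn2* were called lower in WT IP (-0.25 ± 0.07, SE, and -0.36 ± 0.08, SE) but not in KO IP. The KO IP values of *Nlgn2* were 205, 182, 121 and 134 CPM, spread more widely than its KO inputs of 213, 223, 177 and 178 CPM, and each IP library was below its own input. Its log2(FC) in KO was -0.30 (95% interval -0.64 to 0.04; edgeR adjusted p = 0.106), and -0.32 with an edgeR adjusted p of 0.00384 when the animal was a block. *Nrxn3* in KO was at 400 to 492 CPM in input and at 436, 362, 338 and 355 CPM in IP, with a log2(FC) of -0.20 (edgeR adjusted p = 0.0806, and 0.0417 with the block). Both genes were called without replicate 1 of the KO IP, which was highest for each (*Nlgn2* -0.43, *Nrxn3* -0.28).

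The IP of this cohort held astrocyte marker RNA: the 10 markers were higher in both genotypes and summed to 19940 to 29700 CPM in WT IP and 23680 to 32110 CPM in KO IP, against 4739 to 6830 CPM in the inputs. Of the 10 oligodendrocyte markers, 8 were called higher in each genotype (1 was higher and 3 were lower in Control IP), with sums of 7857 to 11580 CPM in WT IP and 7336 to 10500 CPM in KO IP against 5519 to 6457 CPM in the inputs. The neuron markers summed to 4844 to 6160 CPM in WT IP and 4788 to 5641 CPM in KO IP, against 6667 to 7301 CPM in the inputs, with 6 lower and 1 higher in WT and 8 lower and 1 higher in KO. Precursor markers were higher for 5 of 8 genes in WT and 7 of 8 in KO, and the 10 microglia and 10 endothelial markers were lower in both genotypes. The part of these cells in the values of the 9 genes was not tested.

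To find whether loss of SAPAP3 altered these genes, KO was compared with WT in input, in IP and in bulk tissue. None of the 9 was called in any of the 3 comparisons, and their groups overlapped in each, whereas groups did not overlap for 4.0% of genes in input, 1.54% in IP and 3.18% in bulk tissue. Over all genes, 0.00641% of 15591 were called in input, 0.0263% of 15198 in IP (0.00658% higher and 0.0197% lower) and 0.0% of 16020 in bulk tissue, so few genes passed at all. At an unadjusted p under 0.05, which 869, 399 and 792 genes reached, the count was 1 of the 9 in input, 0 in IP and 1 in bulk tissue. DESeq2 and limma-voom also called 0 of the 9 in each. In input and bulk tissue, fewer cells of a type and less RNA per cell cannot be told apart.

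The knocked-out gene, *Dlgap3*, which encodes the postsynaptic scaffold SAPAP3, was lower in the libraries labelled KO. In the input it was at 469, 371, 358 and 382 CPM in WT and 193, 179, 158 and 159 CPM in KO (log2(FC) = -1.19 ± 0.10, SE; edgeR adjusted p = 0.00698). In the IP it was at 225, 168, 172 and 197 CPM in WT and 95, 76.7, 55.2 and 61.1 CPM in KO (log2(FC) = -1.40 ± 0.17, SE; edgeR adjusted p = 0.0283). In bulk tissue it was at 377, 367, 332 and 228 CPM in WT and 157, 148, 150 and 136 CPM in KO, without overlap, but its edgeR adjusted p was 0.318.

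*Nrxn2* in input had the smallest unadjusted p of the 9 in the SAPAP3 cohort. It was at 237, 257, 251 and 281 CPM in WT and 302, 318, 266 and 288 CPM in KO, with overlapping groups and a log2(FC) of 0.20 (95% interval 0.04 to 0.35; edgeR unadjusted p = 0.0182, adjusted p = 0.735). In the IP its log2(FC) was 0.11 (95% interval -0.09 to 0.31) and in bulk tissue 0.03 (-0.28 to 0.34). In bulk tissue *Lrrtm2* had the smallest p. Its values were 183, 150, 172 and 169 CPM in WT and 140, 133, 137 and 162 CPM in KO, which overlap (log2(FC) -0.24, 95% interval -0.42 to -0.06; edgeR unadjusted p = 0.0153, adjusted p = 0.984). In input and IP the log2(FC) of *Lrrtm2* was 0.09 and -0.03.

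The lowest and highest ends of the 95% intervals of the fold change over the 9 genes were 0.82 and 1.28 in input and 0.74 and 1.39 in IP. In bulk tissue they were 0.75 and 1.27. The interval of each single gene was narrower than these bounds. Without adjustment, those of *Nrxn2* in input (1.03 to 1.28) and *Lrrtm2* in bulk tissue (0.75 to 0.96) did not include 1, whereas the others did. The median log2(FC) of the 9 was 0.02, -0.03 and -0.07. In bulk tissue, WT replicate 1 was the highest of its group for *Nrxn2* (319 CPM, others 205 to 286), *Nlgn2* (195 CPM, others 145 to 152) and *Nlgn3* (133 CPM, others 106 to 114). This library was also highest for *Lrrtm2* (183 CPM) and lowest for *Nlgn1*, *Lrrtm1*, *Lrrtm3* and *Lrrtm4*. It is the WT library whose animal number is also given to a KO library. The SAPAP3 groups each held 1 of 4 libraries with more reads of *Xist* than of the Y-linked genes, as did bulk WT but not bulk KO, and with *Xist* as a covariate 0 of the 9 genes were called. The enrichment itself did not pass the test of a genotype difference either: 0 of the 9 and 0.0% of 16059 genes were called for KO minus WT of log2(IP/input), with differences of -0.11 to 0.02 over the 9 genes. For this test 203 genes had an unadjusted p under 0.05, and DESeq2 called 1 gene.

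**Figure D4:**
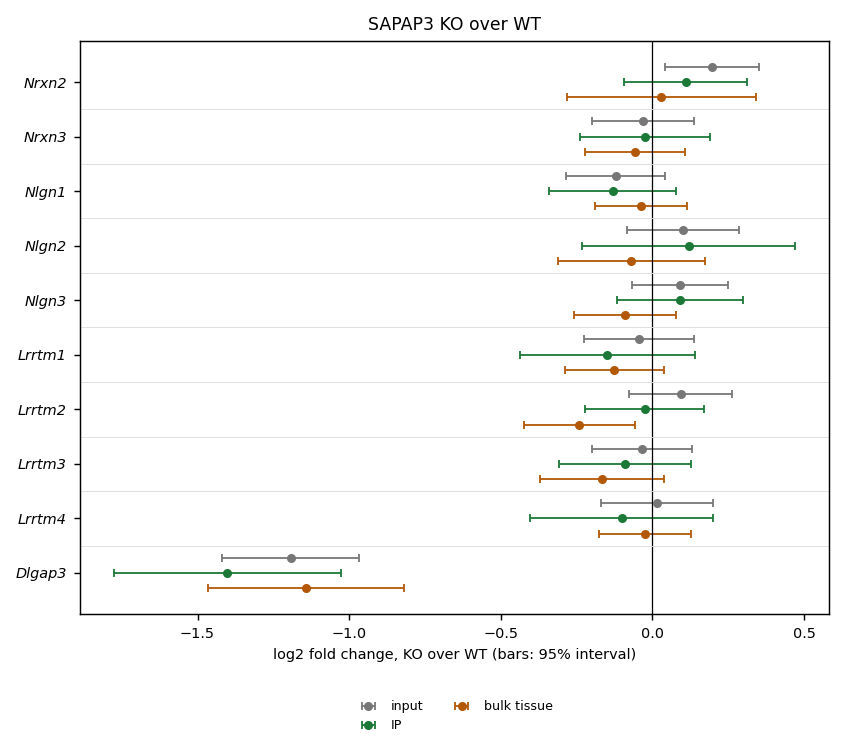
Log2 fold change of SAPAP3 KO over WT (x axis) in input, IP and bulk tissue for the 9 genes and *Dlgap3* (y axis), with 95% intervals from edgeR. The 9 genes lie between -0.24 and 0.20 and *Dlgap3* between -1.40 and -1.14.

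*Lrrtm1*, *Lrrtm2* and *Lrrtm3* can be compared with the alpha-catenin genes that surround them, since alpha-catenins link cadherins to actin in many cell types. The strand setting of the counting is not given in the sources used here. Without strand, reads of introns of the host could be assigned to the LRRTM gene inside it. *Ctnna1* was 2.49-fold higher in Control IP (264 ± 16.4 against 101 ± 5.46 CPM, SD, n = 4), whereas *Lrrtm2* within it was not called. The reads of *Lrrtm2* per read of *Ctnna1* were 0.915 ± 0.066 in Control input and 0.346 ± 0.028 in Control IP (SD, n = 4). In the neuron RiboTag both genes were higher in IP (log2(FC) 0.30 and 0.36), and the ratio was 1.45 ± 0.061 in input and 1.38 ± 0.022 in IP.

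*Ctnna2* was higher in both Control IP (log2(FC) 0.38 ± 0.03, SE) and Syn IP (0.44 ± 0.04, SE), whereas *Lrrtm1* was lower in the former and higher in the latter. *Ctnna3* had few reads, at 2.82 to 9.76 CPM per library, and was lower in Syn IP (log2(FC) -0.82 ± 0.13, SE; edgeR adjusted p = 0.000201), where *Lrrtm3* was higher. In Control IP *Ctnna3* did not pass the test (0.12, 95% interval -0.19 to 0.43), whereas *Lrrtm3* was lower.

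**Figure D5:**
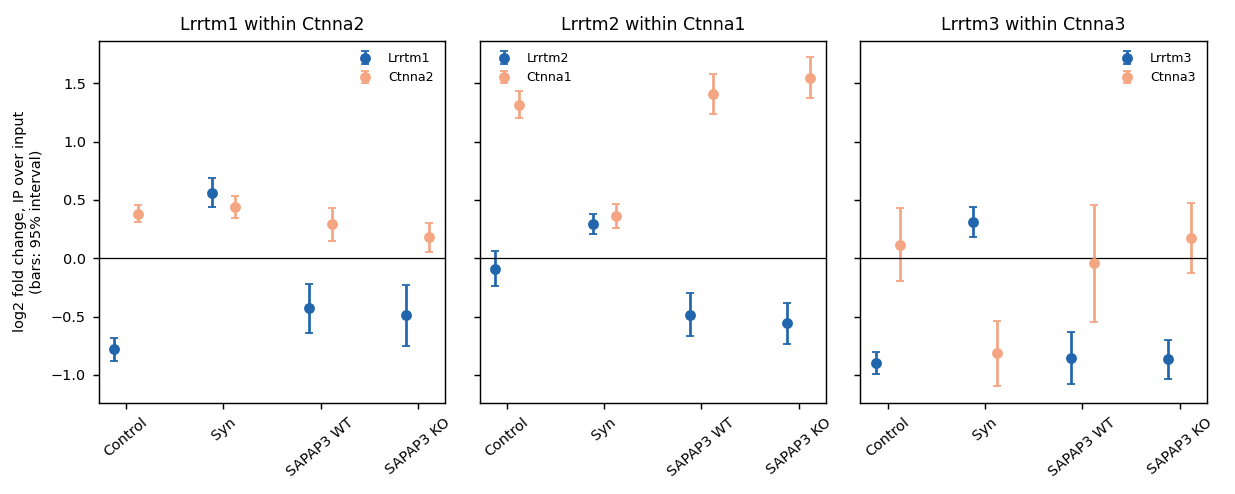
Log2 fold change of IP over input (y axis) of *Lrrtm1*, *Lrrtm2* and *Lrrtm3* beside that of the alpha-catenin gene that surrounds each, in the Control, Syn, SAPAP3 WT and SAPAP3 KO comparisons (x axis), with 95% intervals from edgeR. *Ctnna1* lies at 1.32, 1.41 and 1.55 in Control, WT and KO, where *Lrrtm2* lies at -0.09, -0.48 and -0.56.

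Other genes of these complexes were taken from 4 lists of partners, scaffolds and regulators. Together, 29 of 36 tested were called in Control IP over input, against 80.4% of all genes (39.2% higher and 41.2% lower). In Syn IP over input 25 of 37 were called, against 71.3% (35.5% higher and 35.9% lower). The interaction called 28 of 37, against 70.1% (35.8% towards Syn and 34.3% towards Control). Of 19 partners of neurexins other than the members, 17 were tested in Control, and 10 were higher and 3 lower in the IP, with a median log2(FC) of 0.51 against -0.02 for all genes. *Sparcl1*, a secreted protein known to bridge neurexins and neuroligins, was at 1161 ± 35.4 CPM in Control input and 7073 ± 575 CPM in Control IP (SD, n = 4; log2(FC) 2.54), and *Nxph2*, a secreted neurexophilin, at 1.54 ± 0.285 and 8.48 ± 0.595 CPM (2.39). The lowest were *Cbln1*, a secreted cerebellin (-0.40), and *Fam19a2*, a TAFA protein (-0.39). *Cbln1* had few reads, at 1.75 ± 0.105 CPM in Control input and 1.39 ± 0.205 CPM in Control IP (SD, n = 4). *Fam19a2* was at 20.2 ± 1.56 and 16.1 ± 0.894 CPM. In Syn IP 9 of 18 partners tested were higher and 3 lower, with *Sparcl1* at -0.31. The interaction called 3 towards Syn and 7 towards Control, with *Sparcl1* at -2.85 and *Nxph2* at -2.15.

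The scaffolds inside the cell were split. Of 6 on the neurexin side, 4 were higher and 2 lower in Control IP, from *Apba2*, an adaptor of the Mint family (log2(FC) 1.12), and *Cask*, a membrane-associated kinase-like scaffold (0.41), down to the Lin7 proteins *Lin7a* (-0.62) and *Lin7b* (-1.15). Of 8 on the side of the neuroligins and LRRTM proteins, 2 were higher and 4 lower. *Dlg4*, which encodes PSD-95, was at 546 ± 14.8 CPM in Control input and 260 ± 7.32 CPM in Control IP (SD, n = 4; log2(FC) -1.14). *Magi1* (0.49) and *Gphn*, which encodes gephyrin (0.11), were higher. In Syn IP 3 of 6 and 5 of 8 were higher, among them *Lin7b* (0.60) and *Dlg4* (0.29), and 0 of 6 and 1 of 8 were lower. On the neurexin side the interaction called 2 towards Syn and 4 towards Control, from *Lin7b* at 1.75 to *Apba2* at -0.69, with a median of -0.18. On the other side it called 6 towards Syn and 1 towards Control, from *Dlg4* at 1.43 to *Magi1* at -0.50, with a median of 0.37. Over all genes, 39.2% were called higher and 41.2% lower in Control IP, and 35.5% higher and 35.9% lower in Syn IP. The interaction called 35.8% of all genes towards Syn and 34.3% towards Control.

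Of 5 regulators, 4 were higher in Control IP, against 39.2% of all genes, with a median log2(FC) of 0.91. *Gpc4*, a glypican of the cell surface and a binding partner of LRRTM4, was at 1.86 ± 0.372 CPM in input and 18.6 ± 0.592 CPM in IP (SD, n = 4; log2(FC) 3.23). *Mdga1*, which binds neuroligins, had a log2(FC) of 1.26, *Ptprs*, a receptor phosphatase, 0.91 and the protease *Adam10* 0.16. In Syn IP 1 of the 5, *Ptprs* (0.38), was higher and 3 were lower, *Mdga1* (-0.42), *Mdga2* (-0.34) and *Adam10* (-0.16). Over all genes 35.5% were higher and 35.9% lower there. The interaction called 5 of 5 towards Control, against 34.3% of all genes. Of the 38 genes of the 4 lists, 37 were tested in KO over WT in input, IP and bulk tissue, and 0 were called by edgeR.

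The genes whose pattern over the 40 libraries was most like each member were found as the largest Pearson correlation of log2(CPM + 0.5), after the mean of each cohort was subtracted, among 11762 genes that averaged 5 CPM or more. Here CPM was taken over the total count of the library, without TMM scaling. These libraries share cohorts and IP and input groups, so the values are a description. *Lrrtm3* was followed most closely by *Nanos1* (r = 0.992) and *Clvs1* (0.991), *Nlgn1* by *Arhgap10* (0.980) and *Gpr61* (0.979), *Lrrtm4* by *Glce* (0.975) and *Zfp667* (0.972) and *Lrrtm1* by *C2cd2l* (0.965) and *Lzts1* (0.964). For *Nlgn2* the closest was *Pianp* (0.967), for *Nrxn3* they were *Syn3* (0.942) and *Nhsl2* (0.940) and for *Lrrtm2* *Rab39b* (0.934) and *Reps2* (0.931). *Nrxn2* was most like *Mdga1* (0.878) and *Fat4* (0.862), and *Nlgn3*, whose largest value was the smallest of the 9, was most like *Aplp1* (0.766) and *Ttyh3* (0.754). Between members, r was 0.972 for *Nlgn1* and *Lrrtm4* and 0.970 for *Lrrtm3* and *Lrrtm4*, and -0.635 for *Nrxn2* and *Lrrtm3*.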

How the data were processed

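Per the labels, STAR, HTSeq and mm10 were used upstream, and the authors deposited raw counts of 24060 gene symbols in 40 libraries. Versions, annotation and strand setting are not given in the sources used here, and labels and methods name different kits. From these counts, CPM and FPKM were computed with library sizes scaled by TMM over the 40 libraries. The search for alike genes and the check of pairs used CPM over total counts instead.

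Groups were compared in R 4.3.3 with edgeR 4.0.16 (filterByExpr, TMM, glmQLFit and glmQLFTest, compared groups only). Alternatives used DESeq2 1.42.0, limma 3.58.1 (voom), total-count or upper-quartile scaling, no filter, an FPKM above 5 filter in at least 4 libraries, a replicate block, *Xist* as a covariate, all 40 libraries in 1 fit and each library left out. Tests were tried on simulated data.

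Replicate numbers pair IP and input: they mark 1 animal, or in the Syn cohort the number in the title. The labels of the Syn cohort give IP and input different animal numbers. Deviations of same-numbered libraries correlated at 0.251 to 0.796 over 11762 genes, and each IP correlated best with its own input (4 of 4 per cohort).

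The named genes are the 9 members, *Dlgap3*, the 3 alpha-catenin genes, from each partner list the 2 highest and 2 lowest called in Control IP over input, and the 2 most alike genes of each member. Some genes that this rule names are not reported here. The members and lists were chosen with earlier results of these data known. All 40 deposited columns of counts were used.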

Additional observations from a re-analysis of the deposited data

Results flagged for a closer look

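In 5 of 90 sets of 4 libraries (9 genes in 10 groups), 1 library lay far from the other 3 for its group's range, where chance gives about 1 in 20. In bulk KO these were the lowest values of *Nrxn3* (384 CPM, others 441 to 448), *Nlgn1* (193 CPM, others 205 to 206) and *Lrrtm1* (46.3 CPM, others 52.1 to 53.2). In bulk WT it was the highest value of *Nlgn2* (195 CPM, others 145 to 152), and in Control IP the lowest value of *Lrrtm2* (82.2 CPM, others 93.4 to 94.9).

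The enrichment in IP differed between the Syn and Control RiboTags for 8 of the 9 genes, by edgeR's interaction test. The log2 difference, Syn minus Control, was 1.34 for *Lrrtm1*, 1.21 for *Lrrtm3*, 1.04 for *Lrrtm4*, 0.73 for *Nlgn1*, 0.38 for *Lrrtm2*, 0.34 for *Nlgn2*, 0.29 for *Nrxn3* and -0.73 for *Nrxn2*. Over all genes 70.1% were called in this test, and cell type, sex and cohort cannot be told apart.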

How the results depend on the processing

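Over the alternatives that kept every library, 591 of 629 values of single members stayed on their side of the threshold, 22 were newly called and 14 were no longer called. The 591 include values that were called in neither fit, whatever their sign. For example, *Lrrtm4* in Syn IP over input was at 0.08 in the main fit and at -0.12 with total-count scaling. *Nlgn1* in Syn IP over input changed sign and was called, at -0.16 with total-count scaling and -0.12 with the FPKM above 5 filter. The number of members called changed by over 1.5 times in Syn IP over input with total-count scaling (3). Over all genes, the FPKM filter, which tests fewer genes, called 8095 in Control, 6442 in Syn, 6607 in SAPAP3 WT and 7155 in SAPAP3 KO IP over input, and 1 in KO over WT in IP. For KO over WT, DESeq2 called 8 genes in input, 8 in IP and 17 in bulk tissue, the fit of all 40 libraries called 8 in input and 18 in bulk tissue, and *Xist* as a covariate left 1 in IP. DESeq2 called 1 gene for KO minus WT enrichment. The cause was not tested. Leaving out 1 library gave 0 to 1 genes called in input, 0 to 3 in IP and 0 to 1 in bulk tissue for KO over WT, newly called 7 member values and lost 0.

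With the replicate block, the members called were 7 in Control, 6 in Syn, 9 in SAPAP3 WT and 9 in SAPAP3 KO IP over input, 9 for Syn minus Control and 0 for KO minus WT. Beyond those given beside the results, the block changed no call of a member. With 4 libraries per group, small changes of KO over WT were not detectable.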

Other observations

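In the SAPAP3 cohort the partners of the 9 genes were called in both directions. Over all genes, 67.3% were called in WT (32.7% higher and 34.6% lower) and 71.9% in KO (36.1% higher and 35.9% lower). Of the neurexin partners, 5 were higher and 7 lower in WT IP than in input (17 tested) and 5 higher and 9 lower in KO IP (18 tested), with medians of the log2(FC) of -0.36 and -0.33. Of the 8 scaffolds on the neuroligin and LRRTM side, 1 was higher and 6 were lower in each genotype. Of the 5 regulators, 3 were higher in each genotype, and 1 was lower in WT.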
